A study of Mus musculus with 4 samples.

Results

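The clustered and variant histone genes of the mouse were examined in 4 ATAC-seq libraries, 2 from haematopoietic stem cells (HSCs) that carried the receptor CD93 (CD93-positive, CD93+) and 2 from HSCs without it (CD93-negative, CD93-). ATAC-seq marks open chromatin through the insertions of the Tn5 transposase. Members were the protein-coding genes with a current or older symbol of the form Hist1h to Hist4h, plus 9 replication-independent variants named in the rule. They numbered 76 of 21887 protein-coding genes, 67 of them clustered and 9 variants. By older symbol, 54 belonged to Hist1, 10 to Hist2, 2 to Hist3 and 1 to Hist4.

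The CD93+ and CD93- cells came from male C57BL/6 mice, 8 weeks old, wild type and untreated, as sorted marrow cells. Both groups shared the gate, which was LSK (lineage-negative, Sca-1-positive and Kit-positive), CD34-negative, CD48-negative, Flt3-negative and Slam1-positive. Femora and tibiae were pooled, and separate animals per library are not stated, so the spread within a group may be technical. Of the 7 genes that encode Kit, Sca-1 (Ly6a), CD34, CD48, Flt3, Slam1 and CD93, Flt3 alone had a summit within 1000 bp of a gene end, with a score of 10.8 in CD93- replicate 1. The sorted identity can therefore not be checked at these genes.

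Each deposited file lists the summits of 1 library, each with a score on a −log10 scale for p or q against that library's own background. The lists held 21 and 711 summits in CD93+ replicates 1 and 2, against 7989 and 2755 in CD93- replicates 1 and 2. Read depth is unknown, so list length is the only measure of yield, and it moved with the groups. Their parts in any difference of counts cannot be told apart. CD93+ replicate 1 stood apart, with 4 genes of 21887 reached in all. Scores are not scaled between libraries, so a score in 1 list cannot be read as higher or lower than a score in another. For some genes the rank or percentile inside the list is given below (a percentile of 100 is the highest score). In a bulk library of sorted cells, a low score does not separate weak opening in many cells from opening in a few.

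Histones package DNA into nucleosomes, in which DNA wraps around a core of H2A, H2B, H3 and H4, with H1 bound to the linker. Most clustered genes are replication-dependent. These are typically short, mostly lack introns and give mRNAs that end in a stem-loop instead of a poly(A) tail. They are transcribed mainly in S phase from histone locus bodies organised by the coactivator NPAT. Variant genes lie alone, mostly give polyadenylated mRNAs and supply H2A.Z, H2A.X, macroH2A, H3.3 and linker histones outside S phase as well. Adult HSCs are mostly quiescent, and chromatin openness at a gene is not a measure of its transcription.

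Open sites at histone genes were common in CD93- HSCs, few in CD93+ replicate 2 and not listed in CD93+ replicate 1. A gene was called open when a summit lay within 1000 bp of either of its ends. This held for 0 and 7 of 76 histone genes in CD93+ replicates 1 and 2 (0% and 9.21%), against 61 and 35 in CD93- replicates 1 and 2 (80.3% and 46.1%). Over all protein-coding genes the same share was 0.0183% and 3.22% in CD93+ replicates 1 and 2, and 32.2% and 12.9% in CD93- replicates 1 and 2. In each of the 3 longer lists the histone share was thus above that of all genes. Mean numbers of open histone genes were 3.5 ± 4.95 in CD93+ and 48.0 ± 18.4 in CD93- libraries (SD, n = 2 each), a difference (CD93+ minus CD93-) of -44.5. The groups did not overlap, but an exact permutation test gave a two-sided p of 0.33, below which this design of 2 and 2 libraries cannot go. The direction of the difference in means turned when the CD93- lists were shortened to the 711 summits of CD93+ replicate 2, as described further on.

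**Figure D1:**
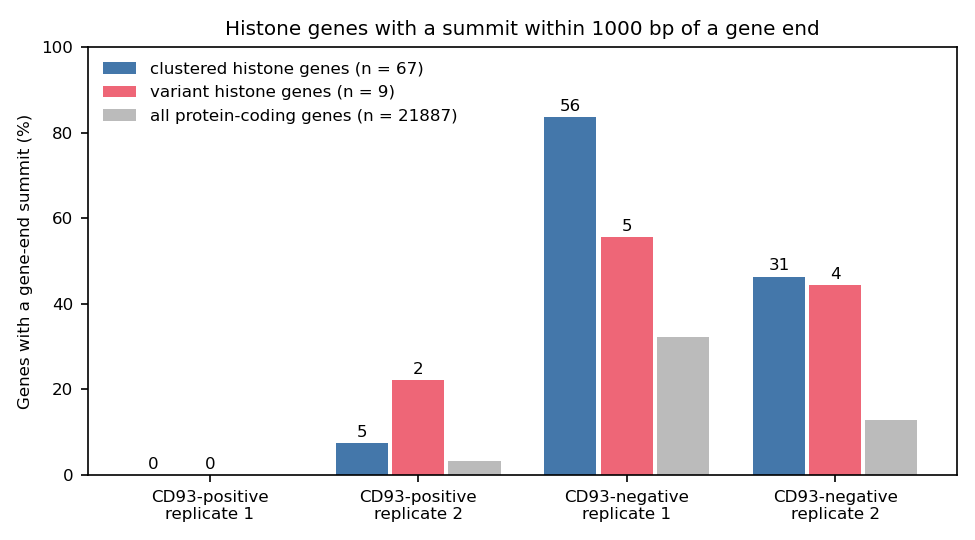
Bars give the percentage of clustered histone genes, variant histone genes and all protein-coding genes with a summit within 1000 bp of a gene end in each library, and the numbers above the histone bars count the open genes. In CD93- replicate 1, 56 of 67 clustered genes were open, against 5 of 67 in CD93+ replicate 2 and 0 in CD93+ replicate 1.

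Short neighbouring genes share summits, so counts of genes run above counts of sites. Histone genes had a median length of 502 bp, against 17169 bp over all protein-coding genes, and 61 of 76 were under 1000 bp. In CD93- replicate 1 the 61 open genes rested on 46 distinct summits, of which 14 served 29 genes. In CD93- replicate 2 the 35 open genes rested on 23 summits, of which 11 served 23 genes. All 7 open genes of CD93+ replicate 2 had summits of their own. When genes whose windows overlapped were joined into 45 loci, 0 and 7 loci were open in CD93+ replicates 1 and 2, against 39 and 22 in CD93- replicates 1 and 2. The difference in means, -27.0 loci, again gave p = 0.33 in the exact permutation test.

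Many of the genes were open in more than 1 library. The matching overlap over all protein-coding genes is not given here, so the counts that follow stand without a background. Of the 76 genes, 34 were open in both CD93- libraries, 25 in CD93- replicate 1 alone, and 1, the H3 gene H3c2, in CD93- replicate 2 and not in replicate 1. All 7 genes open in CD93+ replicate 2 were open in CD93- replicate 1, and 5 of them in both CD93- libraries. Their summits in CD93+ replicate 2 lay 0 to 153 bp from those in CD93- replicate 1, with a median of 77.0 bp. From those in CD93- replicate 2 they lay 10 to 1054 bp (5 pairs, median 114 bp, 4 within 250 bp). Between the CD93- libraries the median distance was 71.0 bp over 24 pairs of summits, 20 of them within 250 bp.

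**Figure D2:**
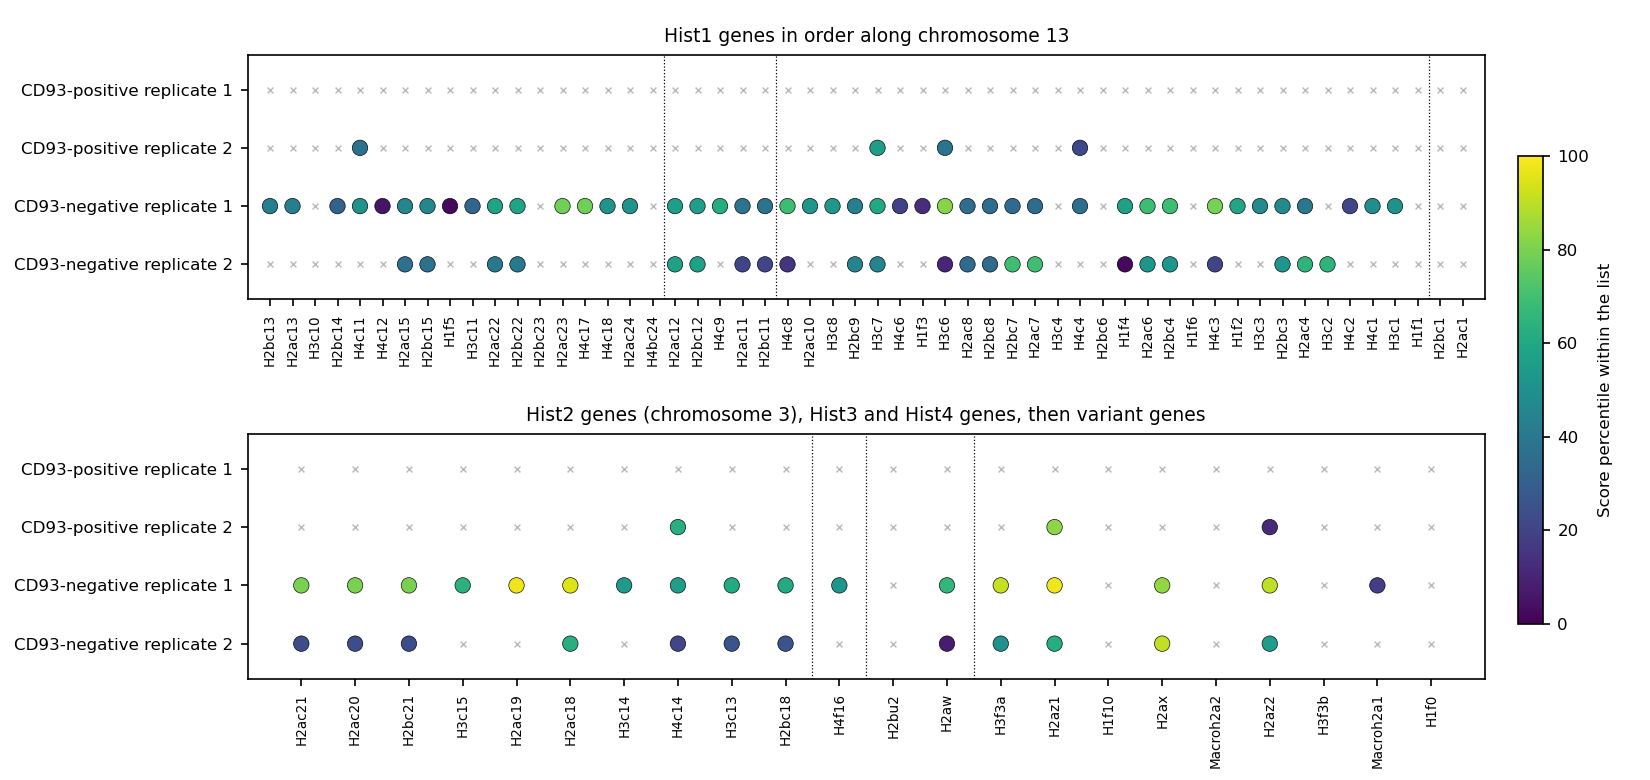
Each column is 1 histone gene in chromosome order and each row 1 library. Filled circles mark an open gene, coloured by the percentile of its highest-scoring summit within the list, and crosses mark genes without a gene-end summit; dotted lines separate clusters and, within Hist1, stretches over 100 kb apart. CD93+ replicate 2 shows 7 filled circles and CD93+ replicate 1 none, while CD93- replicate 1 is filled nearly throughout.

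In each of the 3 longer lists the best-scoring histone gene was a variant, H2az1 or H2ax, while the other variants ranged from high to low. H2az1 (gene ID 51788, chromosome 3, 137864487 to 137866922), the main gene of H2A.Z, a variant found around active starts, scored 12.8 in CD93+ replicate 2, against 81.0 and 11.5 in CD93- replicates 1 and 2. These scores ranked 122 of 711, 184 of 7989 and 1047 of 2755. H2az1 was the best-scoring histone gene of both CD93+ replicate 2 and CD93- replicate 1, and it was not listed in CD93+ replicate 1. H2az2 (chromosome 11, 6427226 to 6444511), the second H2A.Z gene, had a score of 4.94 in CD93+ replicate 2, against 53.4 and 10.5 in CD93- replicates 1 and 2. It lay low in the CD93+ list, at percentile 12, and at percentiles 90.1 and 55.4 in the CD93- lists.

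H2ax (chromosome 9, 44334715 to 44336077), whose protein is phosphorylated around DNA breaks, was open only in CD93- libraries. It scored 43.4 and 18.3 in replicates 1 and 2, and in replicate 2 it was the best-scoring histone gene, at rank 252 of 2755. The summit nearest to H2ax in CD93+ replicate 2 was 43347 bp away. H3f3a (chromosome 1, 180802560 to 180813605), a gene of H3.3, scored 55.7 and 9.91 in CD93- replicates 1 and 2 and was not open in CD93+ cells. Its percentiles were 91.1 and 51.0. Macroh2a1 (chromosome 13, 56073622 to 56135626), a gene of the large variant macroH2A, was open in CD93- replicate 1 alone, with a score of 9.95 at percentile 18.1.

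The other 4 variants lacked a summit near either end in all libraries. H3f3b (chromosome 11, 116021961 to 116026039), the second gene of H3.3, did have a summit inside the gene, 1622 bp from the nearer end in CD93+ replicate 2, against 1462 and 1574 bp in CD93- replicates 1 and 2. Its scores were 6.09 in CD93+ replicate 2, against 59.9 and 17.9 in CD93- replicates 1 and 2, at percentiles 26.6, 93.1 and 89.8. The missing call at H3f3b is therefore a matter of the window. Macroh2a2 and the linker histone genes H1f0 and H1f10 were 58177, 32528 and 1311024 bp from a summit in CD93+ replicate 2. In CD93- replicate 1 those distances were 43183, 32479 and 63825 bp, and in CD93- replicate 2 they were 43115, 32513 and 92613 bp. H1f0 and H1f10 encode replacement linker histones, H1.0 being typical of differentiated or resting cells.

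Among clustered genes, the H4 genes were open most completely in CD93- replicate 1, with 13 of 13. There, 17 of 18 H2A genes, 13 of 18 H2B genes, 9 of 12 H3 genes and 4 of 6 H1 genes were open. The order was different in CD93- replicate 2, where 12 of 18 H2A genes and 11 of 18 H2B genes were open, but 3 of 13 H4 genes, 4 of 12 H3 genes and 1 of 6 H1 genes. CD93+ replicate 2 listed 3 of 13 H4 genes and 2 of 12 H3 genes, and 0 of the 18 H2A, 18 H2B and 6 H1 genes. With 5 open clustered genes in that library, these family counts are small, and no test of a difference between families was made. Over all protein-coding genes the shares were 3.22% in CD93+ replicate 2, and 32.2% and 12.9% in CD93- replicates 1 and 2. Some calls rested on a neighbour's summit. In CD93- replicate 1 the summits of H2ac10, H2ac23, H2ac24 and H2ac21 lay 1470, 1415, 1316 and 975 bp downstream of their starts. They lay nearest to the starts of H3c8, H4c17, H4c18 and H2ac20. In CD93- replicate 2 the summits of H3c13, H2ac21 and H2ac4 lay 960, 920 and 1212 bp downstream of their starts. Those lay nearest to the starts of H2bc18, H2ac20 and H3c2.

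The 5 clustered genes open in CD93+ replicate 2 were H4c14, H4c11, H4c4, H3c7 and H3c6. H4c14 (older symbol Hist2h4, chromosome 3, 96262934 to 96263317), an H4 gene of the Hist2 cluster, scored 9.61 in CD93+ replicate 2, against 23.3 and 6.73 in CD93- replicates 1 and 2. The percentiles of these scores were 62.8, against 55.7 and 20.9. H3c7 (Hist1h3f, chromosome 13, 23544052 to 23544954) scored 8.62 in CD93+ replicate 2, against 25.4 and 9.19 in CD93- replicates 1 and 2. Its percentiles were 55.1, against 60.0 and 45.0. Its summit was at 23544498 in both CD93+ replicate 2 and CD93- replicate 1, while its highest summit in CD93- replicate 2, at 23543444, also served the H2B gene H2bc9. A second summit lay inside H3c7 in that library, at 23544375, with a score of 8.85. H3c6 (Hist1h3e, chromosome 13, 23561475 to 23562385) scored 7.19 in CD93+ replicate 2, against 41.6 and 5.44 in CD93- replicates 1 and 2. Its percentiles were 37.9, against 81.9 and 10.5. These 3 genes were open in every list but the shortest.

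H4c11 (Hist1h4j, chromosome 13, 21735034 to 21735456) scored 7.14 in CD93+ replicate 2, against 21.2 in CD93- replicate 1, and was not listed in CD93- replicate 2. H4c4 (Hist1h4d, chromosome 13, 23581568 to 23581969) scored 5.82 in CD93+ replicate 2, against 15.3 in CD93- replicate 1, and was likewise missing from CD93- replicate 2. The percentiles of H4c11 and H4c4 were 37.6 and 22.2 in CD93+ replicate 2, against 51.4 and 35.7 in CD93- replicate 1. Both encode the core histone H4 and were listed in the shorter CD93+ list of 711 but not in the CD93- list of 2755. The promoter window of H4c11 matched that of H4c12 at 274 of 300 aligned bases, so short reads there could be shared between the copies, and how such reads were filtered is unstated.

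The 150 bases before the annotated start of these 2 H4 genes, of H3c6 and of H2az1 are shown because these members were listed in CD93+ replicate 2 and stand for an H4, an H3 and a variant promoter. They are RefSeq sequences of GRCm38.p6 (mm10), 5′ to 3′ on the gene's strand. Capitals mark matches to the CCAAT box, the TATAAA box, the octamer ATTTGCAT, and the E2F-type cores TTTCGCGC and TTTGGCGC, on either strand. H4c11 had no match in these bases and H4c4 had a CCAAT on the opposite strand and a TATAAA, 40 and 32 bp before its start. H3c6 held 3 CCAAT matches, 150, 121 and 54 bp before its start. H2az1 held 2, and 18 CG dinucleotides, against 10, 6 and 9 in H4c11, H4c4 and H3c6. The windows are chr13:21734884-21735033 (plus strand), chr13:23581418-23581567 (plus), chr13:23562386-23562535 (minus) and chr3:137864337-137864486 (plus).
H4c11: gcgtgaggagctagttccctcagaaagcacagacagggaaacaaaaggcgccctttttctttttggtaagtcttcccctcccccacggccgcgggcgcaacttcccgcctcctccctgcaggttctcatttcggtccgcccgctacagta
H4c4: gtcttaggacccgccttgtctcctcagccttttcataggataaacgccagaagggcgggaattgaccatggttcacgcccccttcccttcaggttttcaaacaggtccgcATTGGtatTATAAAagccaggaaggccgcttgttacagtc
H3c6: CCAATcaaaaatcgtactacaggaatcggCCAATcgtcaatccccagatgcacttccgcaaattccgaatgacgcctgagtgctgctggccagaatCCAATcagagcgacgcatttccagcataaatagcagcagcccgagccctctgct
H2az1: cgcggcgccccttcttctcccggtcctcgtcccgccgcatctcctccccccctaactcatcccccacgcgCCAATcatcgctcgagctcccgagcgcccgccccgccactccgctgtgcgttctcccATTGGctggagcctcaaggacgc

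Histone promoters differed in composition from promoters at large, and clustered and variant genes differed from each other. The promoter table covered 70 of the 76 genes, each with 250 bases before and 50 after the start. Of 63 clustered promoters, 54 held CCAAT (85.7%), against 8121 of 21263 protein-coding promoters (38.2%). TATAAA was found in 35 of 63 (55.6%), against 12.6% of all, the octamer ATTTGCAT in 14 of 63 (22.2%), against 1.66%, and TTTCGCGC in 9 of 63 (14.3%), against 0.451%. TTTGGCGC was in none of them, against 0.635% of all. CCAAT is the box bound by NF-Y and TATAAA that of the TATA-binding protein. Neighbouring windows overlap, so a match can count for 2 genes, and a match is no proof of a bound site.

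The families were alike in some motifs and not in others, with no test of a difference. CCAAT was in all 18 H2A, 17 H2B, 10 H3 and 6 H1 windows but in 3 of 12 H4 windows. TATAAA was in 4 of 6 H1, 11 of 18 H2A, 8 of 17 H2B, 4 of 10 H3 and 8 of 12 H4 windows. The octamer was in 7 of 18 H2A and 7 of 17 H2B windows and in none of the H1, H3 and H4 windows. Clustered promoters had a median GC content of 45.3% and 11 CG dinucleotides, against 72.7% and 31.5 for the variants and 56.3% and 13 for all. Across all genes, promoters of genes open in CD93- replicate 1 had a median of 23.0 CG dinucleotides, against 7.0 in the others. Open histone genes had a median of 13, against 11.5 in those not open, and whether the 2 contrasts differ was not tested.

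Summits sat at different places in the families in CD93- replicate 1, with no test of a difference. Each summit was set against the nearest annotated start, positive into the gene, where that start lay within 1000 bp. In CD93- replicate 1, 11 of 12 summits at H4 genes lay downstream of the start, with a median of 117 bp and a range of -223 to 158 bp. All 4 at H1 genes were downstream too, at 44 to 105 bp. The H2A, H2B and H3 summits had medians of 19.5, -26.0 and -7.0 bp (n = 8, 9 and 5). Over all 4824 such gene-end summits of the library the median was -33.0 bp, and 34% lay downstream, against 68.4% of the 38 at clustered genes. In CD93+ replicate 2 the summits of H4c11 and H4c4 lay 114 and 90 bp downstream, and over all 499 summits the median was -80.0 bp with 24.8% downstream. CD93- replicate 2 did not show the same placing at H4 genes, with 68 bp at H4c8 and -50 bp at H4c3, and 8 of its 18 clustered summits lay downstream (44.4%, against 32.4% over 1908). H4c8 and H4c3 were at 134 and 69 bp in CD93- replicate 1. In CD93- replicate 2 the 1 summit at an H1 gene lay at -60 bp. The H2A, H2B and H3 summits of that library had medians of 13.5, -55.0 and 46.0 bp (n = 8, 5 and 2).

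**Figure D3:**
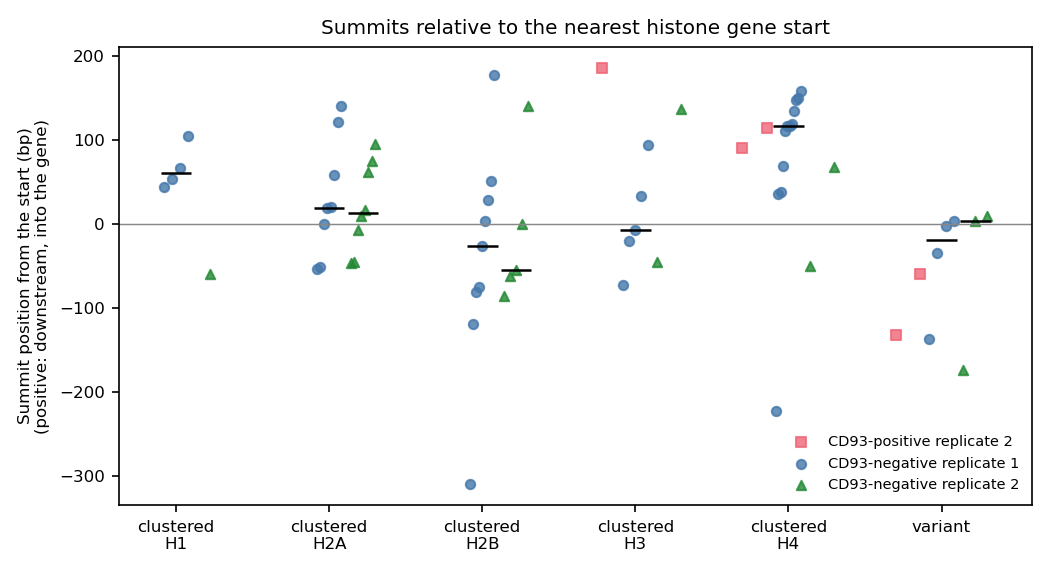
Points give the distance in bp from the nearest annotated histone gene start to each summit (positive: downstream) by family, for CD93+ replicate 2 (squares), CD93- replicate 1 (circles) and CD93- replicate 2 (triangles). Black bars are medians where there were at least 3 points; CD93+ replicate 1 had no summit at these genes. The H4 circles of CD93- replicate 1 gather near 117 bp, with 1 point below the start.

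H2A and H2B genes often stand head to head, with a shared stretch between the starts of both. There were 10 such pairs with known starts, 164 to 281 bp apart (median 204 bp), and each joined an H2A to an H2B gene. No pair had a summit between its starts or within 250 bp beyond them in a CD93+ library, while 7 and 6 pairs had one in CD93- replicates 1 and 2, of which 5 and 2 lay between the starts. The others lay just inside 1 of the paired genes. No matching count over other gene pairs is given, so these counts stand without a background. Under the 1000 bp rule, CD93+ replicate 2 reached 3.22% of all protein-coding genes, against 32.2% and 12.9% in CD93- replicates 1 and 2. The pair H2ac8 and H2bc8 had its summit between the starts in both libraries, with scores of 15.2 and 8.10. H2ac22 and H2bc22 did too, with 24.7 and 8.73. The pair H2ac12 and H2bc12 scored 23.2 and 10.7, at opposite sides: in H2bc12 in replicate 1 and in H2ac12 in replicate 2. H2bc7 and H2ac7 scored 15 and 12.6, and the score of 12.6 placed them at rank 841 of 2755 in CD93- replicate 2, the highest of any clustered gene there.

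The stretch between H2ac8 and H2bc8 is shown because it is a shared H2A and H2B promoter with a summit in both CD93- lists, at bases 99 and 125 of its 179. It is chr13:23571221-23571399, plus strand, GRCm38.p6 (RefSeq), with the start of H2ac8 to its left and of H2bc8 to its right, and capitals mark the same motifs. It held CCAAT at bases 2 (opposite strand) and 30, the octamer at 121 and TATAAA at 137, and 1 CG dinucleotide.
H2ac8-H2bc8: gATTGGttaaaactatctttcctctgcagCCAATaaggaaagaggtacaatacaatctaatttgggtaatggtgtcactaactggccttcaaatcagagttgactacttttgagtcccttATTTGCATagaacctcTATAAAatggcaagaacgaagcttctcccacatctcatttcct

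By cluster, Hist2 was open throughout in CD93- replicate 1. On chromosome 3, from 96219885 to 96270192, 1 of 10 Hist2 genes was open in CD93+ replicate 2, against 10 and 7 in CD93- replicates 1 and 2. The best scores of clustered genes in CD93- replicate 1 were here, 77.4 at H2ac19 and 66.9 at H2ac18, at ranks 215 and 393 of 7989. In CD93- replicate 2, H2ac18 scored 11.6 and H2ac19 was not listed. The H3 genes beside them, H3c15 and H3c14, scored 27.5 and 22.2 in CD93- replicate 1 and had no gene-end summit elsewhere. Their promoter windows matched at 284 of 300 aligned bases, so this pair of copies may also share reads. H2ac21, H2ac20 and H2bc21 shared 1 summit of score 39.7 and 6.94 in CD93- replicates 1 and 2, and H3c13 and H2bc18 shared 1 of 25.9 and 7.24. H3c13 also had a weaker summit of its own in CD93- replicate 1, with a score of 15.8, 52 bp downstream of its start.

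The large Hist1 cluster on chromosome 13 falls into 4 stretches that lie over 100 kb apart. In the first, from H2bc13 to H4bc24, 1 of 18 genes was open in CD93+ replicate 2, against 15 and 4 in CD93- replicates 1 and 2. In the next, from H2ac12 to H2bc11, 0 of 5 were open in CD93+ replicate 2, against 5 and 4. In the stretch from H4c8 to H1f1, 3 of 29 were open in CD93+ replicate 2, against 24 and 15. The last holds H2bc1 and H2ac1, the testis-type H2B and H2A genes, and the nearest summit was 171385 bp from H2bc1 in CD93- replicate 1. H1f6, the testis-type linker histone gene, also lacked a gene-end summit, but the neighbouring H4c3 summit lay 1844 bp from it in CD93- replicate 1. These testis-type genes were named after their values were seen.

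Other Hist1 genes were open in both CD93- libraries and in no CD93+ library. The H4 genes H4c3 and H4c8 scored 39.5 and 30.7 in CD93- replicate 1 and 6.57 and 6.02 in replicate 2. The neighbours H2ac6 and H2bc4 shared summits of 30.8 and 10.2 in replicates 1 and 2, H2ac15 and H2bc15 of 18.9 and 8.34, and H2ac11 and H2bc11 of 16 and 6.66. The H2B genes H2bc3 and H2bc9 scored 19.5 and 17.8 in CD93- replicate 1 and 10.1 and 9.19 in replicate 2. H2ac4 scored 16.7 and 11.8, the second of these at a summit that it shared with H3c2. In CD93- replicate 1 alone, the best scores in Hist1 were 38.4 at the summit shared by H2ac23 and H4c17, 26.4 at H4c9, 24.7 at H1f2 and 22.1 at the summit shared by H3c8 and H2ac10. The promoter window of H4c17 matched that of H4c18 at 298 of 300 aligned bases, so these copies may share reads, and H4c18 scored 21.1 in the same library. The scores of the genes in both libraries were lower in CD93- replicate 2 throughout, but scores are not scaled between libraries.

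Of the somatic linker histone genes in Hist1, H1f4 was open in both CD93- libraries, with scores of 24.1 and 4.10. The score of 4.10 was at percentile 2.29 of CD93- replicate 2, whose lowest score was 3.04. H1f2, H1f3 and H1f5 were open in CD93- replicate 1 alone, with 24.7, 8.30 and 5.00, and H1f1 in no list. The percentiles of H1f2, H1f3 and H1f5 there were 58.6, 12.7 and 2.52. The H3 genes H3c4 and H3c10 and the H2B genes H2bc6, H2bc23 and H4bc24 (older symbol Hist1h2br) had no gene-end summit, with the nearest of CD93- replicate 1 at 1216 to 1584 bp. Each of those nearest summits was the gene-end summit of a neighbouring histone gene. The promoter windows of H2bc23 and H4bc24 were identical over 300 bases. At the edge of the window, H2ac10 and H2ac24 were called open by summits 967 and 865 bp away in CD93- replicate 1, and H3c2 and H3c10 missed it at 1117 and 1216 bp. The summits nearest to H3c2 and H3c10 were those called at H2ac4 and H2ac13. Genes without a gene-end summit, and H1f3, H1f5, H2ac24, H4c12 and H4c18, were named to account for them after their values were seen.

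Outside the large clusters, H4f16 (Hist4h4, chromosome 6, 136803993 to 136804431) scored 21.6 in CD93- replicate 1 and was in no other list. H2aw (Hist3h2a, chromosome 11, 58954685 to 58955192) scored 28.8 and 5.01 in CD93- replicates 1 and 2, and its neighbour H2bu2 had its nearest summit 5262 and 5266 bp away there.

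The place of the members within their lists varied. The distinct summits of clustered genes had a median percentile of 37.9 in CD93+ replicate 2 (n = 5), against 52.4 (n = 41) and 34.5 (n = 19) in CD93- replicates 1 and 2. For the variants it was 47.5 (n = 2), against 90.1 (n = 5) and 58.7 (n = 4), with no test. The variants were spread widely, from percentile 82.9 at H2az1 to 12 at H2az2 in CD93+ replicate 2, and down to 18.1 at Macroh2a1 in CD93- replicate 1. A list's own median is the 50th percentile by definition. The position of members in the ranking decides how many are left when the longer lists are shortened.

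Shortening the CD93- lists to the length of CD93+ replicate 2 turned the difference in means, and the groups then overlapped. The 711 highest-scoring summits of CD93- replicates 1 and 2 reached 3 and 1 histone genes (3.95% and 1.32%), where all protein-coding genes gave 3.28% and 3.37%. CD93+ replicate 2, whose whole list is 711 summits, reached 7 (9.21%, against 3.22% of all genes). The 3 genes of CD93- replicate 1 were H2ac19, H2ac18 and H2az1, and the gene of CD93- replicate 2 was H2ax. Of the 7 genes of CD93+ replicate 2, H2az1 was thus the only one among the top 711 of a CD93- list. CD93+ replicate 1 kept its 21 summits and 0 histone genes, below both shortened lists. With it, the group means were 3.5 ± 4.95 in CD93+ and 2.0 ± 1.41 in CD93- libraries (SD, n = 2 each), and the exact permutation test gave a two-sided p of 1. Without CD93+ replicate 1 the difference was 5.0 genes, and the exact permutation p of 0.33 is the smallest that 1 library against 2 can give, so it adds nothing to the direction. As a share of the list, summits at histone genes were 0.985% in CD93+ replicate 2 (exact Clopper-Pearson 95% interval 0.397 to 2.02), against 0.422% (0.0871 to 1.23) and 0.141% (0.00356 to 0.781) in the shortened CD93- lists 1 and 2. The intervals overlap and cover counting error only.

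The CD93- libraries also differed from each other at equal length, in a comparison added after the data had been seen. Shortened to the 2755 highest-scoring summits, CD93- replicate 1 reached 17 histone genes (22.4%), while CD93- replicate 2, at 2755 summits in full, reached 35 (46.1%). All protein-coding genes were reached at 12.9% in the shortened list of replicate 1 as well as in replicate 2. In each of these settings a list used down to its lowest score was set against the strongest part of a longer one, and the part of that selection in the result was not tested.

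**Figure D4:**
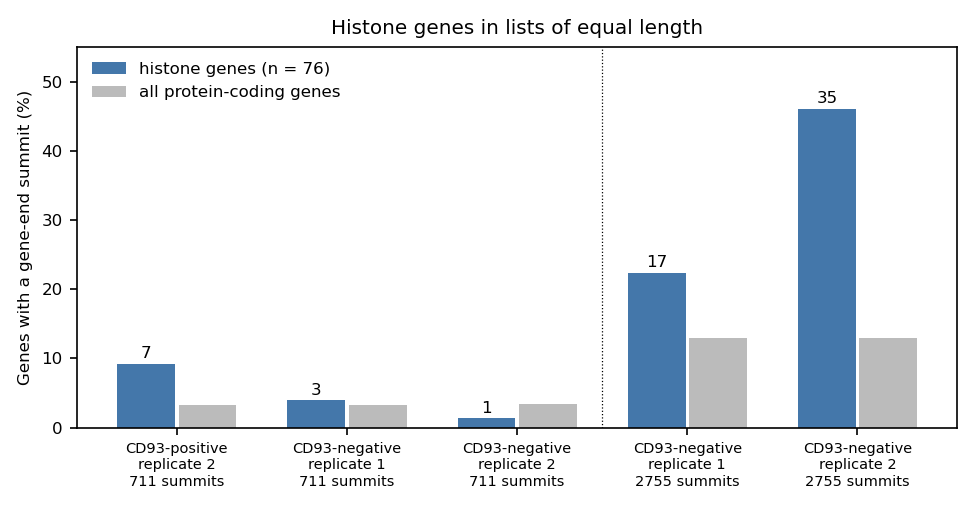
Bars give the percentage of the 76 histone genes and of all protein-coding genes with a gene-end summit when lists are shortened to their 711 or 2755 highest-scoring summits, with the number of open histone genes above the bars. At 711 summits CD93+ replicate 2 had 7 open histone genes, against 3 and 1 in the CD93- lists, and at 2755 summits the CD93- lists had 17 and 35.

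Genes that make and handle histones were counted in the same way, beside shares over all genes of 3.22% in CD93+ replicate 2 and of 32.2% and 12.9% in CD93- replicates 1 and 2, with no test of a difference. Of 18 genes of histone transcription and mRNA processing, 0 and 2 were open in CD93+ replicates 1 and 2, against 16 and 7 in CD93- replicates 1 and 2 (0%, 11.1%, 88.9% and 38.9%). Npat, the coactivator of clustered histone genes, scored 9.71 in CD93+ replicate 2, against 67.3 and 12.1 in CD93- replicates 1 and 2. Pou2f1, whose protein Oct1 binds the octamer, scored 11.1 in CD93+ replicate 2, against 42.4 and 7.42. Both were named after their values were seen. Slbp, the stem-loop binding protein, scored 40.3 and 13.5 in CD93- replicates 1 and 2, and Hinfp, a factor of H4 promoters, 62.0 and 14.4, without a summit in a CD93+ library.

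Of 29 genes of histone chaperones and deposition, 0 and 5 were open in CD93+ replicates 1 and 2, against 22 and 13 in CD93- replicates 1 and 2 (0%, 17.2%, 75.9% and 44.8%). Hjurp, the chaperone of the centromeric H3 variant, scored 15.2 in CD93+ replicate 2, against 80.9 and 31.0 in CD93- replicates 1 and 2. Ep400, a remodeller that deposits H2A.Z, scored 16.3, against 104 and 26.6. Rbbp4, a histone-binding subunit of chromatin assembly factor 1, scored 14.5, against 121 and 22.8, and Npm1, a nucleolar chaperone, scored 9.05, against 48.1 and 13.1. Nap1l4, a chaperone of H2A and H2B, scored 39.9 and 16.1 in CD93- replicates 1 and 2. Anp32e, which removes H2A.Z, Asf1b, an H3 and H4 chaperone, and Ubn1, a subunit of the H3.3 deposition complex, had scores of 51.9, 56.0 and 81.4 in CD93- replicate 1 and of 15.1, 17.4 and 15.5 in replicate 2, and no summit in a CD93+ library. Of 9 other histone variant genes outside the rule, Cenpa and H2aj were open, in CD93- replicate 1 alone, with scores of 22 and 15.9.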

How the data were processed

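ATAC-seq summit lists of 4 libraries were analysed, 1 list per library and not pooled. The submitters' processing notes name Bowtie2, MACS2 and mm10, without versions; filters and thresholds are not stated. The deposited scores were read as −log10 values, of p or of q. Groups and replicate numbers came from the sample titles. Peak names inside the files carry other replicate numbers, 2 and 3 in CD93+ and 1 and 3 in CD93- libraries, so the numbers name libraries only.

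Genes were the 21887 protein-coding genes of the RefSeq table of GRCm38.p6 on the autosomes, X and Y. For each gene the highest-scoring summit within 1000 bp of either end was taken. Starts came from RefSeq promoter windows, with 250 bases before and 50 after. Near-identical windows were found by global alignment, at 90% or more. Libraries were compared by exact permutation, and gene finding was checked on simulated positions. Python 3.11.15, numpy 2.4.6, pandas 2.3.3, scipy 1.17.1 and matplotlib 3.10.9 were used. No list of artefact-prone regions was applied.

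The genes and lists were chosen with earlier results of these data known. Named genes were all variants, clustered genes open in a CD93+ or in both CD93- libraries, the 10 best-scoring of those open in 1 CD93- library, and up to 10 pathway genes open in 2 or more libraries, by their lower CD93- score; promoters were printed for up to 6. A planned comparison of proteins was not run. Alternatives were windows of 500 and 2500 bp, score minimums of 5 and 10, equal list lengths, clustered or variant genes only, pairing by replicate number (replicate block), and each library left out in turn.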

Additional observations from a re-analysis of the deposited data

How the results depend on the processing

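The difference of -44.5 open histone genes, CD93+ minus CD93-, kept its direction in 10 of 12 settings and that of -27.0 loci in 9 of 10. Not all of these settings could turn it, since a replicate block leaves the difference unchanged. Each CD93- count was also above each CD93+ count, so leaving out a library could not turn it. Shortening the CD93- lists to 711 summits, with CD93+ replicate 1 kept at 21, turned both to 1.5, and to 5.0 genes without CD93+ replicate 1, a setting chosen after seeing the data. The shortening removes most summits of the longer lists. Leaving out each library gave -57.5 to -31.5 genes and -35.5 to -18.5 loci. With a replicate block the difference of -44.5 genes had an exact sign-flip p of 0.5, the smallest for 2 pairs. Replicate numbers share only a number in the labels (deviations of the same-numbered libraries over 7087 genes, r = 0.303).

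With a score of at least 10, CD93+ replicate 2 kept 1 gene and CD93- replicate 2 kept 13. Equal lengths of 711 left 3 and 1 in CD93- replicates 1 and 2, and 2755 summits, also chosen after seeing the data, left 17 in replicate 1. Variants alone gave 2 in CD93+ replicate 2, and 5 and 4 in CD93- replicates 1 and 2. A window of 2500 bp reached 10 genes in CD93+ replicate 2, and 70 and 42 in CD93- replicates 1 and 2. Among the genes gained, H3f3b alone had the summit inside the gene. Without the 8 genes in near-identical windows, a setting added later, the counts were 6, 55 and 35 in the same order.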
